A study of Canis lupus familiaris with 14 samples.

Results

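Genes of the mitotic spindle, the kinetochore and chromosome condensation were followed across 14 lymph node samples from 13 dogs. The list held 46 genes, and 42 of them had at least 1 probe set with a single annotated gene symbol among the 15115 genes read in this way on the array. BUB1, MAD2L1, CENPE and MKI67 had no such probe set and were not analysed here. The samples were 7 B-cell lymphomas (FS21, NE41, NE42, RB03, RB16, RB07 and RB10), 3 T-cell lymphomas (FS22, FS25 and NE45) and 4 normal lymph nodes (63, 2970, 3024l and 3024r). The lymphomas were spontaneous tumours of pet dogs from 3 clinics, sampled by fine needle aspirate before the study drug was given, and per the study some of these dogs had received chemotherapy earlier, which was not analysed here. Their breeds were Boxer (RB07, RB10, FS25), Golden Retriever (NE45), Labrador Retriever (NE42), Pointer (RB03), Chesapeake Bay Retriever (RB16), Beagle (FS22) and 2 mixes (FS21, NE41). The normal nodes came from 3 Beagles of 1 colony, of which dog 3024 gave both 3024l and 3024r. The labels call the normal material tissue, whereas the study's methods describe aspirates. Ages were not used here. Transcripts were read on a GeneChip array for the dog genome, whose probe sets, groups of short probes for 1 transcript, each give a single signal. A gene's level was the mean log2 signal over its probe sets, and a fold or a difference refers to log2 signal throughout.

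When a cell divides, chromosomes are compacted by condensin and untangled by topoisomerase II, and each centromere builds a kinetochore that binds the microtubules of the spindle. The spindle checkpoint holds the cell until every kinetochore is attached, after which the anaphase-promoting complex marks securin and cyclin B for destruction and the sister chromatids part. Most of these genes are transcribed late in the cell cycle, so that in a lymph node their transcripts are known chiefly from dividing lymphoblasts, such as those of germinal centres.

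The median signal of an array lay between 85.5 and 130.9. The 3' to 5' ratio of GAPDH, a sign of RNA integrity, was 23.2 for normal array 3024l, while the remaining 13 arrays ran from 3.30 to 8.94. A second pair of GAPDH control probe sets did not set 3024l apart, with a ratio of 328.9 there and from 69.9 (FS22) to 2270.3 (FS25) on the others. Per the study, all of these samples passed its check of RNA integrity. Markers of lineage went against the label on 3 arrays. The summed signal of 9 B-cell markers was 487.0 on RB07 and under 2634 on RB10, both labelled B-cell, and 12617 on FS22, labelled T-cell. Not every marker went this way. MS4A1, which encodes CD20, had a log2 signal of 4.90 on FS22 and 10.40 on RB10, against 9.88 to 11.17 on the normal arrays. The 9 T-cell markers summed to 49145 on RB07 and 64469 on RB10, both labelled B-cell, and to 7698 on FS22, against 14507 to 32424 on the normal arrays. Results are therefore given with and without these 3 libraries. Colony and clinic cannot be told apart from the disease in any comparison with the normal nodes, and FS22 was the single lymphoma of the normal dogs' breed. Fewer dividing cells and less of these transcripts per cell cannot be told apart in a whole sample. The p-values measure only the spread between these dogs.

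The question of the first comparison was which mitotic genes differ between lymphoma and normal lymph node. Of 42 genes, 41 had a higher mean in the 10 lymphomas than in the 3 normal dogs, and the exception was SMC2, a core subunit of condensin. The median difference over the 42 genes was 1.13, and over all 9400 genes tested it was -0.03. At an adjusted p under 0.05 from limma (Benjamini-Hochberg over all genes tested), 7 genes rose in lymphoma and 0 fell, while 1.03% of all genes tested rose and 2.6% fell. The 7 were BUB1B, TTK, NDC80, SPC25, CENPF, TOP2A and TPX2. A further 20 genes had an adjusted p between 0.05 and 0.2, and 31 of the 41 tested had an unadjusted p under 0.05, as did 18.7% of all genes tested. CENPI missed the filter on low signals, which asked for a signal of at least 100 on at least 3 arrays. By their level over all probe sets, TTK, CENPN, CDCA8 and UBE2C passed it through the lymphomas alone, with every normal array under 100, although single probe sets of CENPN and UBE2C were brighter than that in normal nodes. Every lymphoma lay above every normal array for 9 genes, beside 1.71% of all genes tested, and below for 0, beside 3.55%. These were BUB1B, TTK, NUF2, SPC25, CENPF, CENPH, CDC20, NCAPG and TPX2. The count of 7 rested on each normal dog. In limma 0 genes passed without 63 (24 at an unadjusted p under 0.05), beside 0.287% of all genes, and 0 without 2970 (23 unadjusted), beside 0.0213%. Without dog 3024 it was 1, beside 0.16%. With 1 lymphoma left out it was 10 for NE41 (beside 0.979%) and 5 or 6 for each of the others (beside 0.606% to 1.13%). Without RB07, RB10 and FS22 it was 2, BUB1B and CENPF, beside 0.543% of all genes (0 fell, beside 2.34%), and the median difference was again 1.13.

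**Figure D1:**
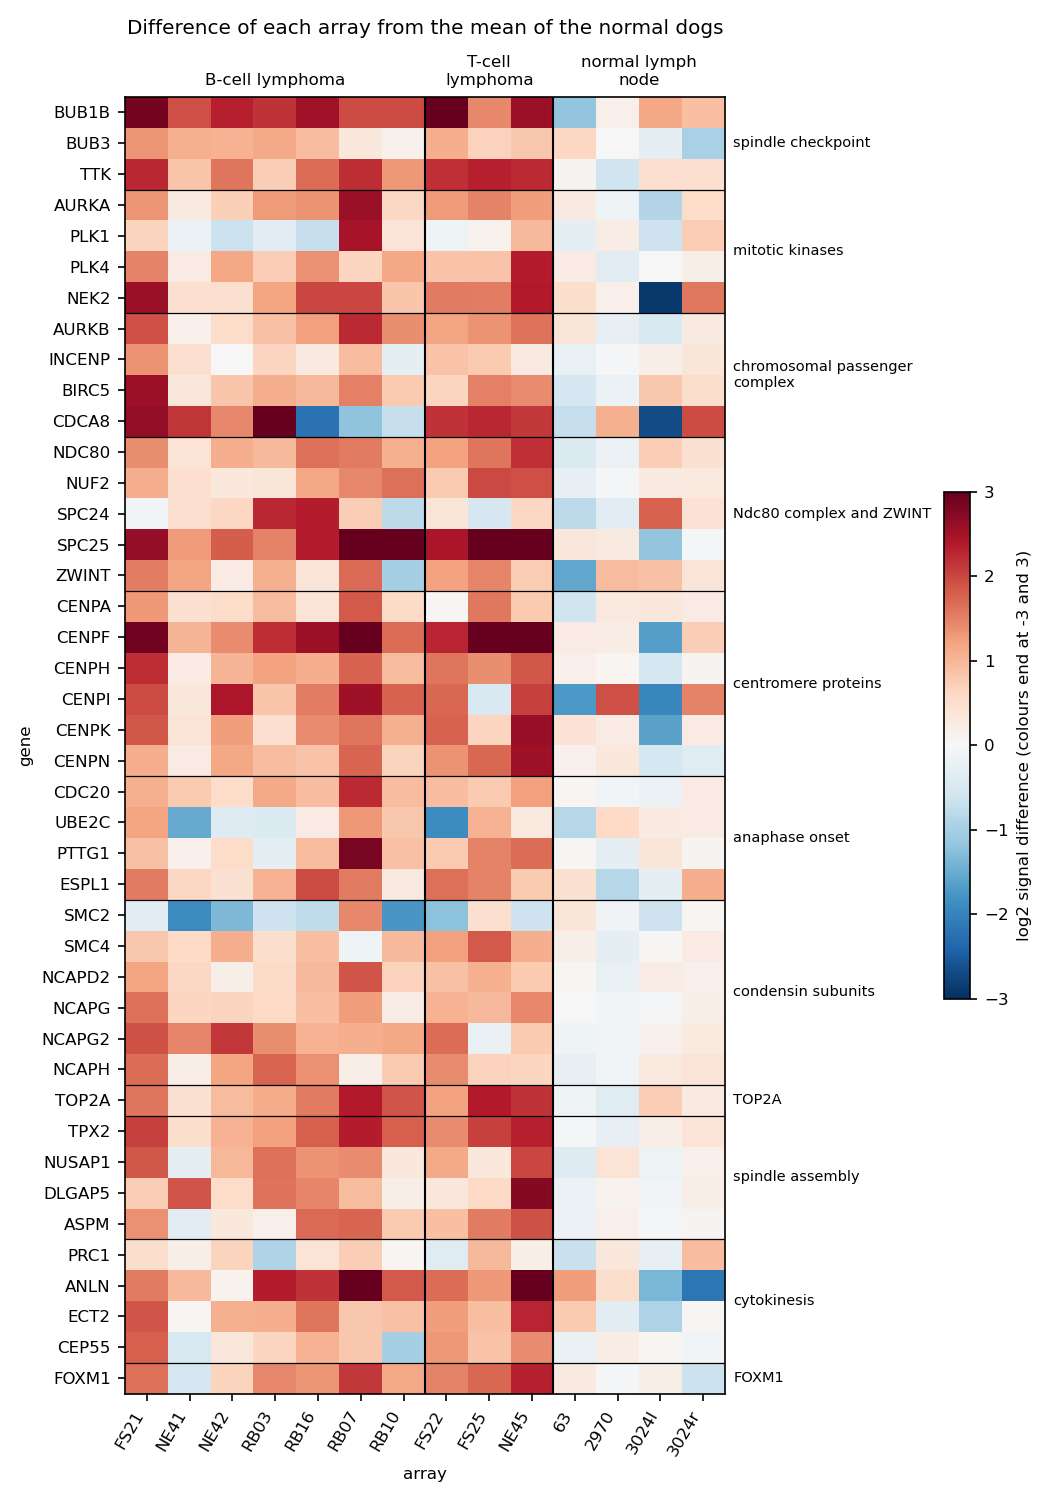
Heat map of the 42 genes (rows, grouped by role) on the 14 arrays (columns, B-cell lymphoma, T-cell lymphoma and normal lymph node). The colour is the difference in log2 signal from the mean of the 3 normal dogs; lymphoma columns are mostly red, with medians from 0.47 (NE41) to 1.76 (NE45), and SMC2, UBE2C, PLK1 and CDCA8 are blue on several lymphomas.

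The spindle checkpoint was read through BUB1B, TTK and BUB3. BUB1B encodes BubR1, which binds and inhibits the activator of the anaphase-promoting complex. Its log2 signal had a lowest value of 8.41, a median of 9.21 and a highest value of 10.05 among the lymphomas, and was 5.77, 7.11, 8.13 and 7.87 on normal arrays 63, 2970, 3024l and 3024r. The groups did not overlap, with FS25 the lowest lymphoma, and array 63 stood lowest among the normals. The means were 9.24 ± 0.49 (SD, n = 10 dogs) in lymphoma and 6.96 ± 1.12 (SD, n = 3 dogs) in normal nodes, a 4.86-fold difference (log2 difference 2.28, standard error 0.42, adjusted p = 0.0153 from limma). TTK encodes the kinase MPS1, which starts the checkpoint signal at kinetochores. Its log2 signal was 6.73, 7.91 and 8.32 at the lowest, median and highest lymphoma, and 6.08, 5.39, 6.48 and 6.49 on the normal arrays in the same order as above. No normal array reached a signal of 100, so the difference was given as a bound of at least 2.11-fold (log2 means 7.72 in lymphoma and 5.98 in normal nodes). The test in limma was not of this bound but used the signals under 100 as they were (log2 difference 1.74, standard error 0.39, adjusted p = 0.0328). TTK had entered it through the lymphomas alone, and with signals raised to at least 100 it did not pass. BUB3, a partner of both BUB kinases, had the smallest difference of the 3, at 0.86 (standard error 0.31, adjusted p = 0.142 from limma).

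Among the mitotic kinases NEK2, AURKA, PLK4 and PLK1, none passed in limma, whereas 3 of the 4 had an unadjusted p under 0.05. NEK2, which acts on centrosome separation, had the largest difference, 1.50 (standard error 0.46, adjusted p = 0.0911 from limma). AURKA, the kinase of spindle poles, had a difference of 1.22, and PLK4, which controls centriole duplication, had one of 1.09. PLK1, the kinase that drives entry into and passage through mitosis, differed by 0.26 (standard error 0.54, adjusted p = 0.845 from limma). Its log2 signal had a lowest value of 7.35, a median of 8.02 and a highest value of 10.51 in lymphoma, against 7.75, 8.28, 7.42 and 8.80 on normal arrays 63, 2970, 3024l and 3024r. The groups overlapped, and the highest value was that of RB07, followed by NE45 at 9.02.

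The chromosomal passenger complex, which corrects faulty attachments and later works at the cleavage site, had differences from 0.53 (INCENP, its scaffold) to 1.25 (AURKB, its kinase). None of its 4 genes passed in limma. AURKB had log2 signals of 8.85, 10.00 and 10.94 at the lowest, median and highest lymphoma, and 9.07, 8.46, 8.25 and 8.97 on normal arrays 63, 2970, 3024l and 3024r. Of the 10 lymphomas, only NE41 lay within the normal range (adjusted p = 0.0876 from limma, standard error 0.38). BIRC5, which encodes survivin, differed by 1.17. CDCA8, which encodes borealin, was dim and erratic, with log2 signals from 2.39 to 7.72 in lymphoma and from 1.93 to 6.56 in normal nodes.

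The Ndc80 complex is the rod that grips microtubules at the kinetochore, and 2 of its 4 subunits rose. SPC25 had the largest difference of all 42 genes. Its log2 signal was 9.0, 10.27 and 11.74 at the lowest, median and highest lymphoma, and 8.07, 7.98, 6.54 and 7.68 on normal arrays 63, 2970, 3024l and 3024r. All lymphomas lay above all normal arrays, with 3024l the lowest of all. The difference was 6.72-fold (log2 means 10.47 ± 1.05 in 10 lymphomas and 7.72 ± 0.53 in 3 normal dogs, SD; log2 difference 2.75, standard error 0.60, adjusted p = 0.0293 from limma). NDC80, the subunit that binds the microtubule, had log2 signals of 9.0, 9.89 and 10.78 at the lowest, median and highest lymphoma, against 8.16, 8.43, 9.32 and 9.04 on the normal arrays in that order. Only NE41 overlapped with the normal range, and the difference was 1.32 (standard error 0.34, adjusted p = 0.0491 from limma). NDC80 passed in 1 of the 13 fits that each left out 1 dog. NUF2, the partner of NDC80, differed by 1.12 (adjusted p = 0.124 from limma) and its groups did not overlap. SPC24, the partner of SPC25, differed by 0.61 (standard error 0.63), and ZWINT, which links the complex to the checkpoint, by 0.86 (standard error 0.58).

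Of the centromere proteins, CENPF rose, and all 6 had positive differences, from 0.85 (CENPA) to 2.35 (CENPF). CENPF is a large protein of the outer kinetochore that accumulates before mitosis. Its log2 signal was 9.69, 11.09 and 11.99 at the lowest, median and highest lymphoma, against 8.92, 8.89, 7.01 and 9.41 on normal arrays 63, 2970, 3024l and 3024r. The groups did not overlap, and the difference was 5.11-fold (standard error of the log2 difference 0.46, adjusted p = 0.0206 from limma). CENPH, of the inner kinetochore, differed by 1.33 with no overlap and an adjusted p of 0.0517 from limma. CENPA, the histone H3 variant that marks centromeres, differed by 0.85 (standard error 0.37, adjusted p = 0.233 from limma). CENPK, a further inner kinetochore protein, differed by 1.32. CENPN, another, differed by 1.23 over its probe sets, and by 0.09 on the brightest of these. CENPI was listed with log2 signals from 3.99 to 6.97 in lymphoma and from 2.49 to 6.38 in normal nodes and was not tested.

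The genes of anaphase onset showed 4 positive differences and no call. ESPL1, which encodes separase, the protease that cuts cohesin, had the largest, 1.14 (standard error 0.40, adjusted p = 0.134 from limma). CDC20, the activator of the anaphase-promoting complex in mitosis, differed by 1.06 (standard error 0.30, adjusted p = 0.0668 from limma), and its groups did not overlap. PTTG1, which encodes securin, differed by 0.99. UBE2C, the ubiquitin-conjugating enzyme of the complex, had the smallest positive difference of all genes, 0.07 (standard error 0.65). Its log2 signal was 3.96, 6.12 and 7.16 at the lowest, median and highest lymphoma and 5.01, 6.45, 6.12 and 6.10 on normal arrays 63, 2970, 3024l and 3024r, so that the lymphomas spread on both sides of the normals.

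The condensin subunits had differences of 0.88 to 1.24 except SMC2, and none passed in limma. NCAPG2, the subunit of condensin II in this group, had the largest, 1.24 (standard error 0.39, adjusted p = 0.0997 from limma). NCAPG, of condensin I, differed by 0.94 (standard error 0.29, adjusted p = 0.0876 from limma) and its groups did not overlap. SMC4, the ATPase that pairs with SMC2, differed by 0.89. SMC2 differed by -0.66 (standard error 0.58, adjusted p = 0.581 from limma), with log2 signals of 5.25, 6.47 and 8.60 at the lowest, median and highest lymphoma against 7.54, 7.07, 6.55 and 7.22 on normal arrays 63, 2970, 3024l and 3024r. This value joined a bright and a dim probe set that moved in opposite directions, as described below for single probe sets.

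TOP2A, topoisomerase II alpha, rose in lymphoma, just past the threshold, and passed in 2 of the 13 fits that each left out 1 dog. Its log2 signal was 11.84, 12.95 and 13.76 at the lowest, median and highest lymphoma, against 11.24, 11.01, 12.10 and 11.63 on normal arrays 63, 2970, 3024l and 3024r. NE41 was the single lymphoma within the normal range. The difference was 2.97-fold (log2 difference 1.57, standard error 0.40, adjusted p = 0.0487 from limma).

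Among the genes of spindle assembly, TPX2, which targets AURKA to the spindle, rose 3.16-fold. Its log2 signal was 9.23, 10.51 and 11.07 at the lowest, median and highest lymphoma, against 8.66, 8.48, 8.91 and 9.12 on normal arrays 63, 2970, 3024l and 3024r. The groups did not overlap (log2 difference 1.66, standard error 0.37, adjusted p = 0.0306 from limma). NUSAP1, which bundles spindle microtubules, DLGAP5, which stabilises fibres at kinetochores, and ASPM, of spindle poles, differed by 1.01 to 1.11. ASPM had the smallest of these (standard error 0.45, adjusted p = 0.243 from limma). The cytokinesis genes ranged from 0.25 for PRC1, the crosslinker of the midzone (standard error 0.38), to 1.81 for ANLN, which encodes the scaffold anillin (standard error 0.65, adjusted p = 0.145 from limma). ECT2, the exchange factor that starts furrowing, differed by 1.19 and CEP55, an abscission factor, by 0.67. FOXM1, a transcription factor of mitotic genes, had log2 signals of 6.20, 8.18 and 9.05 at the lowest, median and highest lymphoma, against 6.98, 6.66, 6.90 and 6.07 on normal arrays 63, 2970, 3024l and 3024r. Here too NE41 was the single lymphoma within the normal range (log2 difference 1.34, standard error 0.47, adjusted p = 0.133 from limma).

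**Figure D2:**
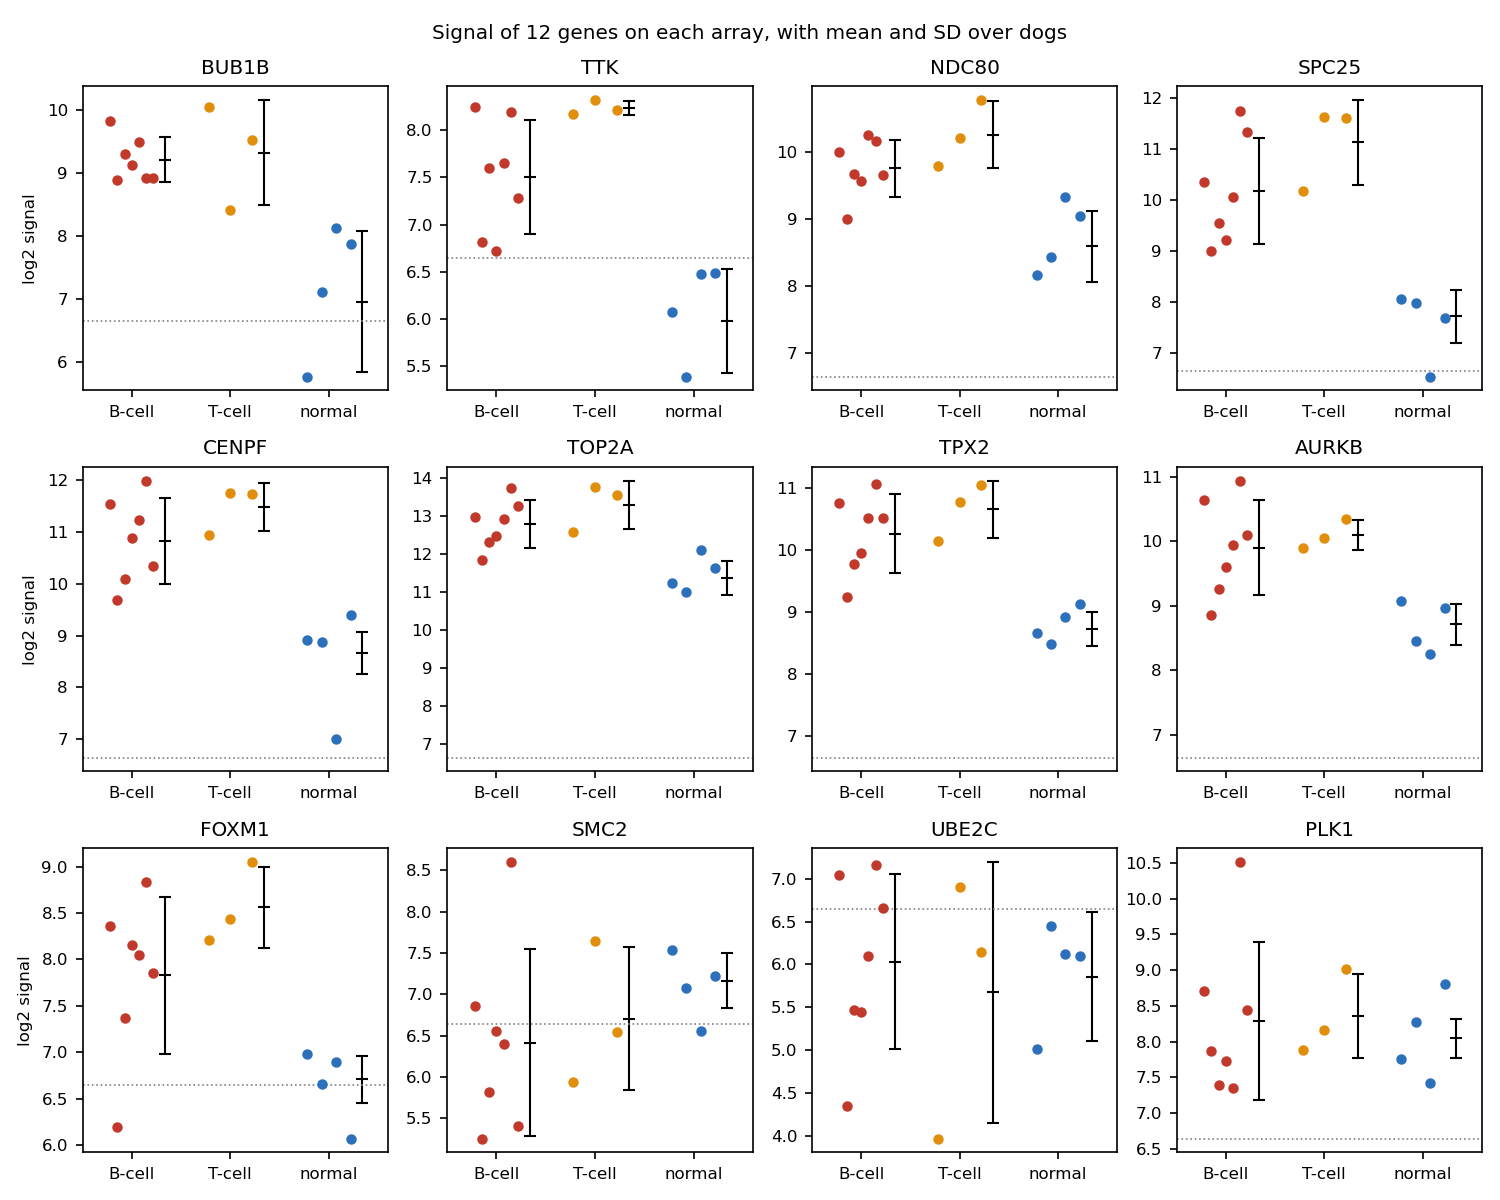
Log2 signal (vertical axis) of 12 genes on each array (points) in B-cell lymphoma, T-cell lymphoma and normal lymph node, with the mean and SD over dogs (bars, n = 7, 3 and 3) and a dotted line at a signal of 100. Lymphoma and normal points do not overlap for BUB1B, TTK, SPC25, CENPF and TPX2, and they do for SMC2, UBE2C and PLK1. For NDC80, TOP2A, AURKB and FOXM1 they overlap through NE41 alone.

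The diagnoses were then compared separately with the normal nodes, which both comparisons share. In B-cell lymphoma the median difference was 1.05 and 2 genes rose, BUB1B and CENPF, beside 0.394% of all genes tested, and 0 fell, beside 1.39%. In T-cell lymphoma the median was 1.33 and 2 genes rose, TTK and CENPF, beside 0.106% of all genes, and 0 fell, beside 0.457%. Of these, TTK had entered the test through the lymphomas alone. BUB1B differed by 2.25 in B-cell lymphoma (standard error 0.46, adjusted p = 0.0326 from limma) and by 2.36 in T-cell lymphoma (standard error 0.54, adjusted p = 0.0715). For TTK the bound was 1.81-fold in B-cell lymphoma and 3.02-fold in T-cell lymphoma. The limma tests were of the unbounded log2 differences, 1.52 (adjusted p = 0.0585) and 2.25 (adjusted p = 0.0479). With signals raised to at least 100, TTK passed in T-cell and not in B-cell lymphoma. CENPF differed by 2.16 in B-cell lymphoma (adjusted p = 0.0414 from limma) and by 2.81 in T-cell lymphoma (adjusted p = 0.0479). With 3024r alone for its dog, CENPF passed in neither diagnosis, and with 3024l alone in B-cell lymphoma only. In each diagnosis it passed in 3 of the 13 fits that each left out 1 dog. SPC25 had the largest difference in each, 2.46 in B-cell lymphoma and 3.42 in T-cell lymphoma, and passed in neither (adjusted p = 0.0567 and 0.0560 from limma). The arrays did not overlap with the normal arrays for 11 genes in B-cell lymphoma, beside 2.65% of all genes, and for 28 genes in T-cell lymphoma, beside 8.24%. In both, all of these lay above the normal arrays and 0 below, where 4.45% of all genes did in B-cell and 9.76% in T-cell lymphoma. They include TTK in both, and CENPN and CDCA8 in T-cell lymphoma, which passed the filter through the lymphomas alone. Without RB07, RB10 and FS22, 4 genes rose in the 5 remaining B-cell lymphomas (BUB1B, SPC25, CENPF and NCAPG2, beside 1.81% of all genes that rose and 4.46% that fell). In FS25 and NE45, the T-cell lymphomas that remained, 9 genes rose (TTK, NDC80, NUF2, SPC25, CENPF, CENPN, SMC4, TOP2A and TPX2, beside 0.819% of all genes that rose and 3.19% that fell). Of these 9, TTK and CENPN had entered the test through the lymphomas alone. The counts of 2 rested on single dogs. In B-cell lymphoma 0 genes passed in limma without FS21, NE42, RB16, 63 or 2970 (16 to 26 at an unadjusted p under 0.05), beside 0.0213% to 0.149% of all genes. It was 1 without RB10, NE45 or dog 3024 (beside 0.0638% to 0.298%), 3 without RB03 or FS22 (0.436% and 0.34%) and 4 without NE41 (0.372%). In T-cell lymphoma 0 passed without NE42, RB16, RB10, FS25, NE45 or any normal dog (18 to 27 unadjusted), beside 0.0106% to 0.0532% of all genes. It was 1 without FS21 or RB03 (beside 0.0745% and 0.117%), 3 without FS22 (0.213%) and 4 without RB07 (0.202%).

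**Figure D3:**
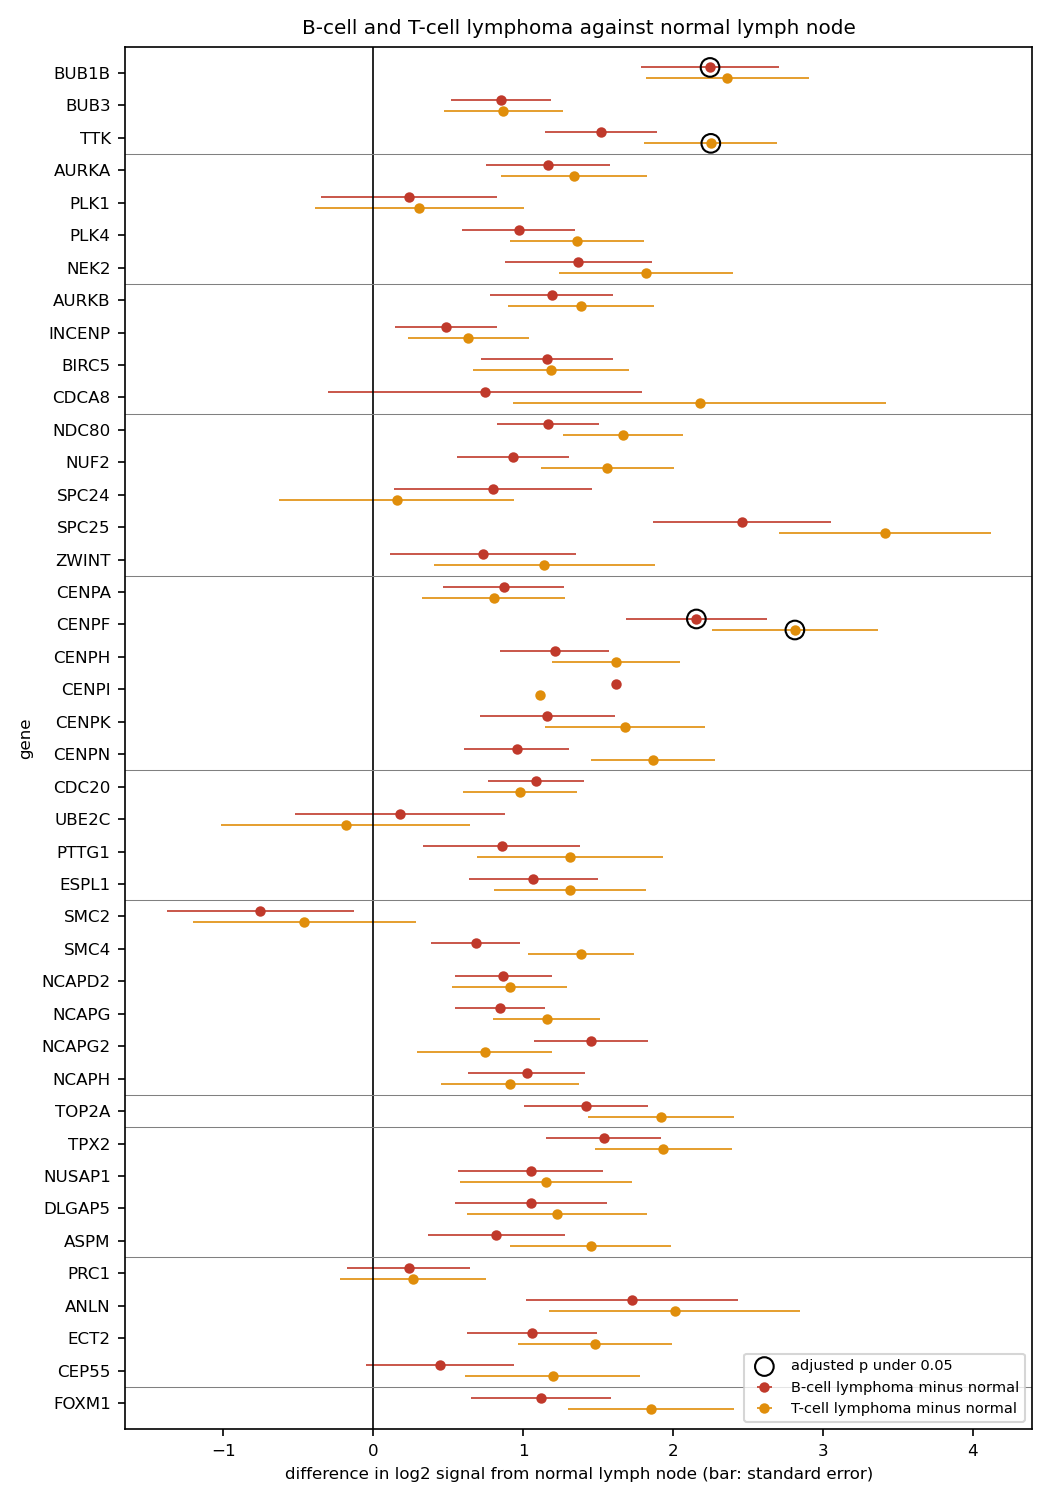
Difference in log2 signal from normal lymph node (horizontal axis, bars are standard errors from limma) for each gene (rows) in B-cell lymphoma and T-cell lymphoma, with a ring where the adjusted p was under 0.05. All points but those of SMC2 and the T-cell value of UBE2C are right of 0, and CENPI has no bar because it was not tested.

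B-cell and T-cell lymphoma did not differ detectably in any of these genes. In limma 0 of 41 genes passed, as did 0 of all genes tested (0%), and 2 of the 41 had an unadjusted p under 0.05, where 4.83% of all genes did, so that this count is near the background. These were CENPN, with log2 means of 6.98 ± 0.46 in B-cell and 7.89 ± 0.62 in T-cell lymphoma, and SMC4, with 10.41 ± 0.41 in B-cell and 11.11 ± 0.40 in T-cell lymphoma (SD, n = 7 and 3; adjusted p = 0.907 for each in limma). The methods' t-test also called 0, with 1 gene at an unadjusted p under 0.05. The difference B-cell minus T-cell was negative for 35 of 42 genes, with a median of -0.30 against 0.01 over all genes tested. Within clinics the direction was not the same. In the clinic of the FS samples (1 B-cell and 2 T-cell lymphomas) the median was 0.28 with 32 genes positive, and in that of the NE samples (2 and 1) it was -1.23 with 4 genes positive. The clinic of the RB samples held no T-cell lymphoma. With clinic as a block the median was -0.37 and 0 genes passed (1 at an unadjusted p under 0.05). Without RB07, RB10 and FS22 the median was -0.51 and SPC25 was lower in B-cell lymphoma, beside 1.99% of all genes tested that were lower and 3% that were higher.

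The study divided the lymphomas into 2 latent classes, here called E-J (FS21, NE41, NE42, RB03, RB16 and FS22) and K-N (RB07, RB10, FS25 and NE45). The classes were drawn from expression profiles that include these arrays, so their levels are described with no test. They follow the summed lineage markers, with B-cell sums of 324.5 to 2634 in class K-N and 12617 to 31285 in class E-J. Of the B-cell markers, MS4A1 alone did not follow them, at 4.90 on FS22 of class E-J and 10.40 and 10.89 on RB10 and NE45 of class K-N. Of the T-cell markers, CD8A did not, at 4.37 on RB10 and 5.90 on FS25 of class K-N and 6.72 on RB03 of class E-J. Of the 4 dogs of class K-N, 3 were Boxers. The median difference from normal was 1.27 in class K-N and 1.06 in class E-J, with 41 positive differences in class K-N and 39 in class E-J. K-N minus E-J was positive for 31 of 42 genes, with a median of 0.34, while the median over all genes tested was -0.05. Class K-N did not overlap with the normal arrays for 23 genes, beside 6.93% of all genes tested, and class E-J for 13, beside 7.26%. All of these lay above the normal arrays, while 9.12% of all genes lay below them in class K-N and 7.97% in class E-J. They include TTK in both classes and CENPN in class K-N, which passed the filter through the lymphomas alone.

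SPC25 separated the classes most widely. Its log2 signals were 11.74 in RB07, 11.34 in RB10, 11.63 in FS25 and 11.60 in NE45, against 9.0 (NE41), 9.81 and 10.36 (FS21) as the lowest, median and highest of class E-J. NUF2 had 9.36, 9.58, 9.90 and 9.84 in the same arrays of class K-N and at most 9.07 in class E-J. TOP2A had 13.75, 13.26, 13.76 and 13.54 in class K-N and at most 12.97 in class E-J. Each lay higher on every array of class K-N than on any of class E-J. These 3 of 42 genes (7.14%) stand beside 4.45% of all genes tested, so this count is near the background. BUB3 lay lower on every array of class K-N, at 9.79, 9.61, 10.16 and 10.29, against at least 10.41 in class E-J. It was the only 1 of the 42 genes to do so (2.38%), beside 6.26% of all genes, a count under the background. With each array centred on its median, the genes above were SPC25, PTTG1 and TOP2A and none lay below, beside 3.95% and 5.03% of all genes. With the brightest probe set of each gene, SPC25 and TOP2A remained above and none lay below, beside 5.24% and 6.02%.

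The median of K-N minus E-J was positive in every role but the spindle checkpoint (-0.50), while direction differed within several roles. It was near 0 for the chromosomal passenger complex (0.025) and the condensin subunits (0.07). All 4 mitotic kinases and all 6 centromere proteins had a higher mean over their probe sets in class K-N, with medians of 0.38 and 0.43. The brightest probe sets of NEK2 (355 in class K-N, 387 in class E-J) and CENPN (1188 in class K-N, 1303 in class E-J) went the other way, and CENPI differed by 0.01. Among the spindle checkpoint genes, BUB1B (-0.50) and BUB3 (-0.61) were lower in class K-N and TTK (0.47) was higher. The condensin subunits were divided, with SMC4, NCAPG and NCAPD2 between 0.06 and 0.37, while NCAPG2 was at -0.90 and NCAPH at -0.70. SMC2 was at 0.91, but this rested on its dim probe set, and its bright one was lower in class K-N (984) than in class E-J (1253). NCAPG2 had means of 9.19 ± 0.64 (SD, n = 4) in class K-N and 10.09 ± 0.39 (SD, n = 6) in class E-J, and FS25 alone, at 8.26, was not above the normal arrays, which ran from 8.36 to 8.78. SPC24 had a difference of -0.99 that came from a pair of probe sets too dim to pass the filter. Its single bright probe set turned the direction, with geometric mean signals of 1446 in class K-N and 874 in class E-J, the direction of SPC25 (1.85). PLK1 and UBE2C were above the normal mean in class K-N (0.99 and 0.86) and below it in class E-J (-0.22 and -0.46).

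**Figure D4:**
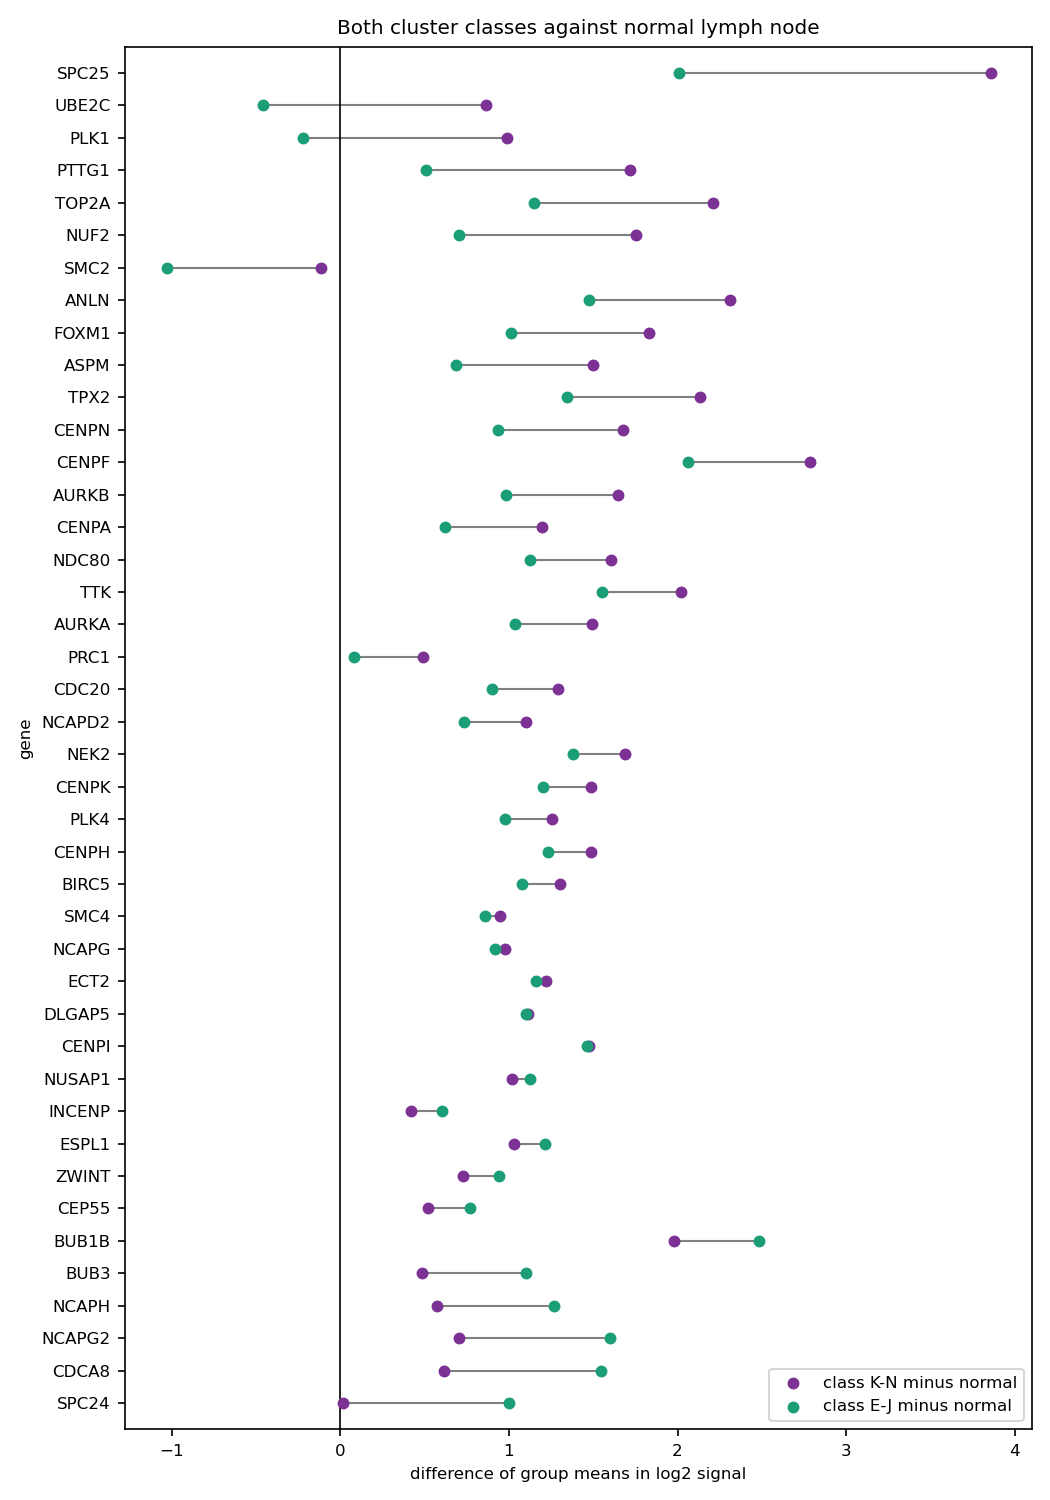
Difference from the mean of the normal dogs in log2 signal (horizontal axis) for each gene in class K-N and class E-J, ordered by K-N minus E-J. SPC25 stands at the top with 3.86 in class K-N and 2.01 in class E-J, and the genes at the bottom, from NUSAP1 down, were higher in class E-J.

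The arrays differed in the level of the whole group of genes. The median of the 42 differences from the normal mean was highest in NE45 (1.76), RB07 (1.65) and FS21 (1.56), followed by FS25 (1.37), RB16 (1.28), FS22 (1.20), RB03 (1.06), RB10 (0.82), NE42 (0.69) and NE41 (0.47). RB07 had the highest value of all lymphomas for 14 genes, NE45 for 10 and FS21 for 7. NE41 had the lowest for 17 genes and RB10 for 8. The number of genes above every normal array ran from 18 in NE41 to 38 in FS21. It was counted for the 42 genes alone, with no share over all genes, so it only orders the arrays. FS22, the Beagle with lymphoma, was above the mean of the normal Beagles for 38 of 42 genes. The share over all genes was not counted here, and the median difference of FS22 over all genes tested was 0.00. A part of breed was not tested. Over all genes tested, the median difference of a lymphoma from the normal mean lay between -0.10 and 0.15. The normal arrays had medians of -0.03 (63), -0.04 (2970), -0.04 (3024l) and 0.26 (3024r), and 3024r was the highest normal for 17 genes. On 3024l, the median over all genes tested was -0.35, and the difference 3024l minus 3024r was -4.63 for CDCA8, -4.47 for NEK2, -2.40 for CENPF and -1.85 for CENPK. The SD of a gene among the lymphomas had a median of 0.64 for the 42 genes and 0.69 for all genes tested. It was lowest for BUB3 (0.38) and NCAPG (0.43) and highest for CDCA8 (1.85).

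Single probe sets were examined because 27 of the 42 genes had more than 1, with 88 probe sets in all. The difference between lymphoma and normal was positive for 80 of them. Of 80 that passed the filter, 13 rose and 0 fell in limma at the level of the probe set, beside 0.796% of all probe sets tested that rose. These 13 belonged to 11 genes, which added AURKA, DLGAP5, FOXM1 and NUSAP1 to the 7 named above. In B-cell lymphoma the probe sets of 2 genes rose (BUB1B and NDC80, beside 0.24% of all probe sets) and in T-cell lymphoma those of 1 (NDC80, beside 0.0408%). Of the 8 negative values, 4 were on probe sets too dim to pass the filter. For SMC2, the bright probe set had log2 means of 10.15 in lymphoma and 8.98 in normal nodes (difference 1.17, adjusted p = 0.163), and the dim one had 2.85 in lymphoma and 5.35 in normal nodes. For CENPN, the brightest of 4 probe sets had log2 means of 10.29 in lymphoma and 10.21 in normal nodes (difference 0.09), and the others differed by 0.95 to 2.42. For UBE2C, the 3 probe sets differed by 0.30, -0.95 and 0.85, and the brightest had log2 means of 7.06 in lymphoma and 6.76 in normal nodes. PRC1 had differences of 0.99 and 0.79 on its brighter probe sets, and 0.11 and -0.90 on its dim ones. For INCENP, 2 bright probe sets moved in opposite directions, with log2 means of 8.94 in lymphoma and 8.14 in normal nodes (difference 0.80) on 1 and of 8.74 in lymphoma and 9.20 in normal nodes (difference -0.46) on the other.

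**Figure D5:**
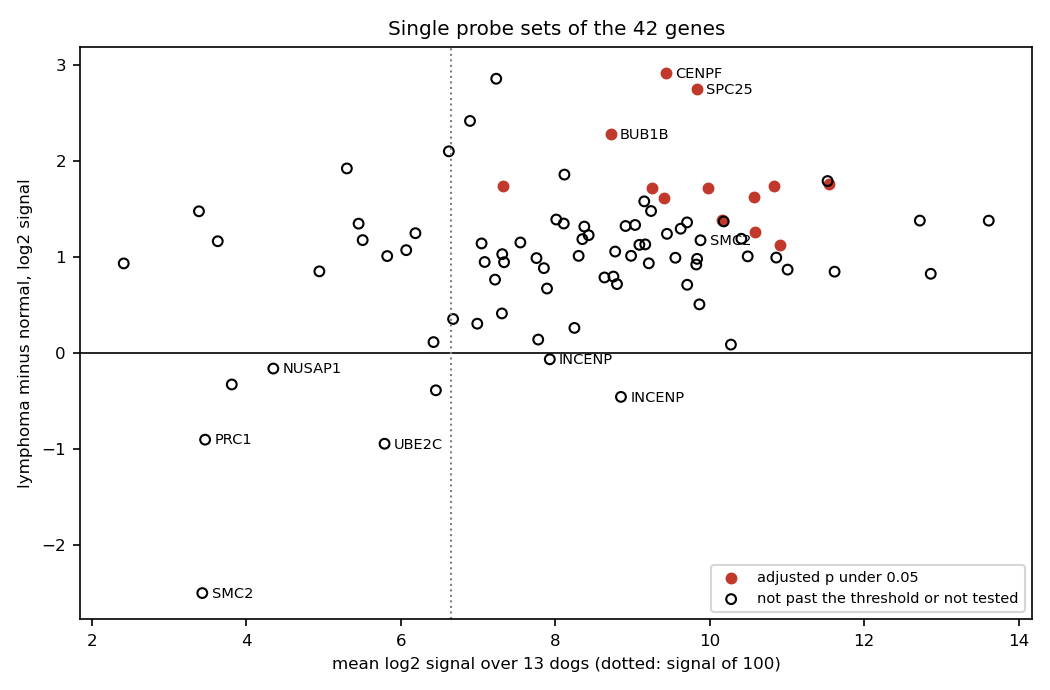
Difference in log2 signal between lymphoma and normal (vertical axis) against the mean log2 signal over the 13 dogs (horizontal axis) for the 88 probe sets of the 42 genes, filled where the adjusted p was under 0.05. The 13 filled points lie at positive differences right of the dotted line at a signal of 100, and the lowest point, at -2.50, is the dim probe set of SMC2.

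Other genes of the same machinery were read from 5 further lists. Of 24 other kinetochore and centromere genes, 23 were tested and 2 rose in lymphoma, SGO1 and KNL1, with a median difference of 0.59 and 20 positive. SGO1, which protects centromeric cohesin, differed by 1.98 (standard error 0.46, adjusted p = 0.0374 from limma), and KNL1, the platform for BUB kinases, by 1.55 (adjusted p = 0.0455). MIS12, of the complex that anchors the kinetochore, differed by 1.64 without passing, and TRIP13, a remodeller of checkpoint proteins, and CENPO had -0.21 and -0.07. Of 19 other spindle and cytokinesis genes, 17 were tested and 3 rose, CKAP2L (1.53), RACGAP1 (1.55) and HAUS8 (1.29), and the median was 0.91. RACGAP1 is a subunit of centralspindlin and HAUS8 a subunit of augmin, of which HAUS7 (2.04) and HAUS5 (-0.67) were not tested and CKAP5, a microtubule polymerase, had -0.31. Of 16 anaphase-promoting complex genes, 1 rose, the late activator FZR1 (2.81, standard error 0.56, adjusted p = 0.0224 from limma). The median was 0.43, with ANAPC13 at 1.13 and ANAPC2 and UBE2S at -1.36 and -1.08. The list of 15 cohesin and condensin II genes had a median of 0.00 and no call in limma among the 14 tested. It ran from the acetyltransferase ESCO2 (1.58, adjusted p = 0.0683) and NCAPD3 (0.88) to STAG1 (-0.39) and NCAPH2 (-0.49, not tested). The MuvB and B-Myb genes, regulators of mitotic transcription, had no call among 5, with LIN9 at 0.56, RBBP4 at 0.54, LIN37 at -0.23 and LIN54 at -0.49. These counts stand beside the 1.03% of all genes tested that rose, as a description of the lists.

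Markers of other cells of the node moved with the comparison. Of 10 macrophage markers, 8 fell in lymphoma in limma, beside 2.6% of all genes tested that fell, and their summed signal was 1412 to 6506 in lymphoma against 19206 to 61118 in normal nodes. Of 8 stromal markers 4 fell, with sums of 571.9 to 4916 in lymphoma against 6296 to 7750 in normal nodes, and of 8 endothelial markers 3 fell, with sums of 1043 to 3731 in lymphoma against 7692 to 12133 in normal nodes. VSIG4 (macrophage) and PDGFRB (stromal) were under 100 on every lymphoma array, and CDH5 and TEK (endothelial) were so on every array. The ranges of summed B-cell markers were 324.5 to 31285 in lymphoma and 5950 to 10099 in normal nodes, and 0 of 8 B-cell and 0 of 9 T-cell markers tested passed. Of the red blood cell markers, ALAS2 passed as higher (beside 1.03% of all genes), admitted by the filter through the lymphomas alone, and SLC4A1 was too dim to be tested. Their part in the levels of the mitotic genes was not tested.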

How the data were processed

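The authors amplified the RNA with the WT-Ovation Pico system, hybridised it to the Affymetrix Canine Genome V2.0 GeneChip and summarised each probe set with MAS5 (version not given in the sources used here). The deposited values are linear signal intensities, scaled by the authors to a common trimmed mean on each array. Detection calls were not used here. Signals were taken to log2, and 29254 of 43035 probe sets, those with exactly 1 symbol in the array's annotation table, were averaged into 15115 genes, of which 9400 with a signal of at least 100 on at least 3 of 14 arrays were tested. The arrays 3024l and 3024r were averaged into 1 dog. The tests were those of limma (version 3.58.1, under R 4.3.3), in a fit of lymphoma and normal and in a fit of B-cell, T-cell and normal, with Benjamini-Hochberg adjustment over all genes tested and a threshold of 0.05. Precision is limited by how many arrays there are. A fold was given as a bound against a signal of 100 where every normal array was under it. Alternatives changed the filter, scaling, pseudocount, floor, gene summary, test and samples. Figures were drawn with matplotlib 3.10.9. The members and lists were chosen with earlier results of these data known. The genes named in full are the largest and smallest difference of each role, the genes that passed, TOP2A, FOXM1 and AURKB, and those that differ from their role in direction. From the further lists they are the largest and smallest 2. SPC24, CENPH and others named besides these were chosen after their values were seen. No sequences are shown.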

Additional observations from a re-analysis of the deposited data

Results flagged for a closer look

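In 11 of 123 combinations of a gene and a group of arrays (8.94%), the highest or lowest array stood apart from the rest by Dixon's criterion, which chance alone meets in about 1 of 20 groups. The combinations are not independent, because the B-cell arrays also belong to the lymphoma group and 3024l and 3024r are 1 dog. The chance rate is therefore only a rough guide. Array RB07 held 6 of these. Among the B-cell lymphomas it stood apart at a log2 signal of 10.51 for PLK1, 10.19 for CDC20 and 12.94 for PTTG1, with the next arrays at 8.71, 9.11 and 11.05. Among all lymphomas it stood apart at 10.68 for AURKA, 10.51 for PLK1 and 10.19 for CDC20, with the next arrays at 9.59, 9.02 and 9.18. RB03 was low for PRC1 among the B-cell lymphomas, at 5.45 with the next array at 6.45. FS21 was high for BIRC5 among all lymphomas, at 10.61 with the next array at 9.55. Among the normal arrays, 63 was low for CENPA (6.15, next 7.0), and 3024l was low for CENPH (7.48, next 8.07) and CENPK (5.76, next 7.60). RB07 also held the highest summed macrophage, endothelial and stromal markers of the lymphomas (6506, 3731 and 4916). Array 3024l had the GAPDH ratio of 23.2 on 1 pair of control probe sets and did not stand apart on the second pair. Their part in these values was not tested.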

How the results depend on the processing

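The median difference of the 42 genes stayed between 1.05 and 1.21 for lymphoma against normal when each dog was left out in turn, and no alternative that was run moved it by more than the spread between dogs or gave a gene that fell. The number of genes that rose (main values 7 in lymphoma, 2 in B-cell and 2 in T-cell lymphoma) changed with the processing. It was 2, 0 and 0 in limma with no filter (31, 26 and 23 at an unadjusted p under 0.05), 13, 9 and 11 with log2(signal + 50), and 16, 11 and 14 with a floor of 100 under the signals. The share of all genes that rose in lymphoma moved with it, at 0.112% with no filter, 1.83% with log2(signal + 50) and 2.69% with the floor, against 1.03%. In B-cell lymphoma it was 0.0595%, 1.14% and 1.93% under these settings, against 0.394%, and in T-cell lymphoma 0.00662%, 0.723% and 1.31%, against 0.106%. It was 13 in lymphoma and 6 in B-cell lymphoma with the mean of linear signals, beside 1.81% and 0.755% of all genes. The methods' t-test gave 15, 6 and 0 (22 unadjusted), beside 3.01%, 1.44% and 0% of all genes. With the brightest probe set it was 12 in lymphoma, beside 1.38%. In lymphoma the t-test kept 3 of the 7 genes (SPC25, CENPF and TPX2) and lost BUB1B, TTK, NDC80 and TOP2A. The brightest probe set kept 5 and lost CENPF and TOP2A. A filter on the mean signal gave 5 in each diagnosis, beside 0.788% of all genes in B-cell and 0.401% in T-cell lymphoma. Quantile normalization gave 5 in B-cell lymphoma, beside 0.691%, while 3024l alone for its dog gave 1 and 0, beside 0.266% and 0.0213%. With the probe set as the unit, chosen after seeing the data, it was 11 in lymphoma and 1 in T-cell lymphoma. The study's own B-cell set, 4 lymphomas against 3 normal arrays, gave 9, where 2.31% of all genes rose and 5.8% fell. Without RB07, RB10 and FS22 it was 2, 4 and 9, and 1 gene was lower in B-cell than in T-cell lymphoma. Leaving out each dog gave 0 to 10 in lymphoma (beside 0.0213% to 1.13% of all genes). It gave 0 to 4 in each diagnosis (beside 0.0213% to 0.564% in B-cell and 0.0106% to 0.213% in T-cell lymphoma). Of the 7 genes, BUB1B passed for lymphoma against normal in 11 of the 13 fits that each left out 1 dog. TTK, SPC25, CENPF and TPX2 passed in 10 each, TOP2A in 2 and NDC80 in 1. The number of genes lower in class K-N than in class E-J was 0, in place of 1, after centring and with the brightest probe set. The shares of all genes were 5.03% and 6.02%, against 6.26%.

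Some single genes changed sign. SMC2 was at 0.30 with log2(signal + 50), 0.59 with the floor of 100, 1.06 with linear means and 1.17 with the brightest probe set, and INCENP was at -0.46 with the brightest probe set. UBE2C lay between -0.36 and 0.37 and PRC1 between -0.094 (without 63) and 0.42 without single dogs, and PLK1 was at -0.015 without RB07, RB10 and FS22. Fewer genes tested or fewer normals enter some of these fits; for the other alternatives the cause was not tested. Signals near background limit SMC2, UBE2C, CDCA8, SPC24 and CENPI. A fit with dog as a random block could not be estimated, because 1 dog gave 2 nodes. No paired analysis was possible because lymphomas and normal nodes came from different dogs, with no label that pairs them.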
